A study of Mus musculus with 12 samples.

Results

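Metallothioneins and the genes that carry, store, export and release iron were followed across cells sorted from mouse skeletal muscle. The genes are Mt1, Mt2, Fth1, Ftl1, Trf, Tfrc, Slc40a1, Cp and Hmox1, and their probe sets were taken wherever the platform's annotation names exactly 1 of them. Of the 9 genes, 7 had such a probe set, among 12393 genes on the array with one. They had 18 probe sets among 20380 with 1 gene: 7 for Cp, 3 for Tfrc, 2 each for Mt1, Fth1 and Slc40a1, and 1 each for Mt2 and Hmox1. Ftl1 and Trf lie only on probe sets that the annotation shares with other genes, so no level is given for either. A mean signal of at least 47.0 over all arrays was asked of a probe set before it was tested. Among the 18, 15 passed, and the 3 that did not were 2 of Tfrc and 1 of Slc40a1. A probe set can pass that limit through a single group in which it is high, so counts over the 15 describe them and support nothing.

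All cells came from the hind limbs of C57BL/6J mice aged 8 to 12 weeks, with 4 arrays in each of 3 groups. Activated satellite cells had bound the antibody SM/C-2.6, which recognises mouse satellite cells, and had then been kept for 4 days in DMEM with 20% fetal calf serum and 2.5 ng/ml basic fibroblast growth factor. By the labels over 99% of them were MyoD-positive. Quiescent satellite cells had bound the same antibody and were taken straight after the sort, with over 97% Pax7-positive. Non-myogenic cells lacked both SM/C-2.6 and the leukocyte antigen CD45, were also taken straight after the sort, and held under 1% myogenic cells. Only the activated cells had been cultured, so activation, culture and time since the sort cannot be told apart. The labels do not say whether arrays of 1 group came from separate mice or cultures, so the spread behind each p-value may be technical.

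Metallothioneins are small cysteine-rich proteins that bind zinc and copper, and their genes are switched on by zinc through the factor MTF1, which binds metal response elements, and by glucocorticoids. Iron travels in blood on transferrin, enters cells through the transferrin receptor, is stored in ferritin made of heavy and light chains, and leaves through ferroportin, helped by the copper enzyme ceruloplasmin, which oxidises it. Haem oxygenase releases iron from haem. When a cell is short of iron, iron regulatory proteins stabilise the transferrin receptor transcript and block translation of ferritin, so ferritin protein can change where its transcript does not.

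Signals were scaled to a common trimmed mean of 235, because the 5 arrays of the small-sample labelling kit had deposited trimmed means of 323 to 502 and the 7 of the two-cycle kit had 160 to 236. Activated and quiescent cells had 2 arrays of each kit, and non-myogenic cells had 1 small-sample and 3 two-cycle arrays, so replicates 1 and 2 of the satellite cell groups and replicate 1 of the non-myogenic cells are the small-sample arrays. The Gapdh control probe sets had a ratio of 3' to 5' signal, a measure that increases as RNA degrades, of 1.75 ± 0.411 in activated, 4.02 ± 0.969 in quiescent and 3.87 ± 0.916 in non-myogenic cells (SD, n = 4). By kit, small-sample before two-cycle, it averaged 1.40 and 2.11 in activated, 3.38 and 4.65 in quiescent and 3.58 and 3.97 in non-myogenic cells. The same ratio for beta-actin was 1.61 ± 0.346 in activated, 2.63 ± 1.04 in quiescent and 1.96 ± 0.374 in non-myogenic cells, so the groups were not spaced alike by both controls. Summed over 9 satellite cell and myoblast markers, the signal was 7150 to 10570 on activated, 14630 to 21120 on quiescent and 3991 to 4467 on non-myogenic arrays. Pax7, the transcription factor that defines satellite cells, averaged 90.2 in activated cells and 1071 in quiescent cells, and 4.07 in non-myogenic cells. Of the 9, 2 were higher and 7 lower in activated than in quiescent cells, and the higher ones were Myod1, at 4629 in activated and 1277 in quiescent cells, and Myog, at 1780 in activated and 457 in quiescent cells. Calcr and Chodl were under the pseudocount of 14.7 on average in activated cells, and Pax7, Calcr and Myf5 were so in non-myogenic cells. The non-myogenic sum is mostly Cd34, which other cell types also express and which averaged 1526 in quiescent cells and 3448 in non-myogenic cells, against the direction of the other 8.

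Against quiescent cells, activated satellite cells had less transcript of both metallothioneins, of ceruloplasmin and of the iron exporter ferroportin, and more of the transferrin receptor and of haem oxygenase 1, while the ferritin heavy chain did not pass the test. With limma's moderated test and Benjamini-Hochberg adjustment over 12072 probe sets, 2 of the 15 were higher, 11 lower and 2 not called at an adjusted p under 0.05. Of all probe sets 68.3% were called in this comparison, 30.7% higher and 37.6% lower. The groups' arrays did not overlap at 13 of the 15, against 51.3% of all probe sets. The 11 lower ones are 7 of Cp, 2 of Mt1 and 1 each of Mt2 and Slc40a1, so they stand for 4 genes. The median log2 difference of the 15 was -4.12, against -0.12 over all probe sets. As 7 of the 15 read Cp, whose own median was -4.25, that value mostly describes 1 gene.

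Against non-myogenic cells, quiescent cells had more metallothionein, ceruloplasmin and transferrin receptor transcript and less haem oxygenase 1. The Hmox1 call was lost without the kit term, and the Tfrc call rests on 1 probe set. The metallothionein differences were smaller on the small-sample arrays alone, as given below. Here 11 of the 15 were higher, 1 lower and 3 not called, with 51.4% of all probe sets called, 27.4% higher and 24% lower. Arrays did not overlap at 6 of the 15, against 38% of all probe sets. The median log2 difference was 1.13 over the 15, against 0.08 over all probe sets. All 7 Cp probe sets were among the higher ones, with a median of 1.42, so these counts and medians weigh 1 gene 7 times. Between activated and non-myogenic cells 2 were higher, 11 lower and 2 not called, with 70% of all probe sets called, 34.1% higher and 35.9% lower. Arrays did not overlap at 11 of the 15 there, against 58.4% of all probe sets. Its median log2 difference was -2.67 over the 15, against -0.04 over all probe sets. The 7 Cp probe sets were among the lower ones there, with a median of -3.22. The 3 comparisons share arrays and are not independent of each other.

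Where all probe sets sit depends on the scaling, which moved their median log2 difference between activated and quiescent cells from -0.12 to 0.17 without scaling, 0.32 with median centring and 0.03 with quantile normalization. Of the probe sets called there, 45.0% were higher, against 59.1% unscaled and 65.7% with median centring. Between quiescent and non-myogenic cells 53.4% were higher, against 23.6% unscaled, and between activated and non-myogenic cells 48.8%, against 65.4% with median centring. No called member probe set changed direction under any of these scalings.

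**Figure D1:**
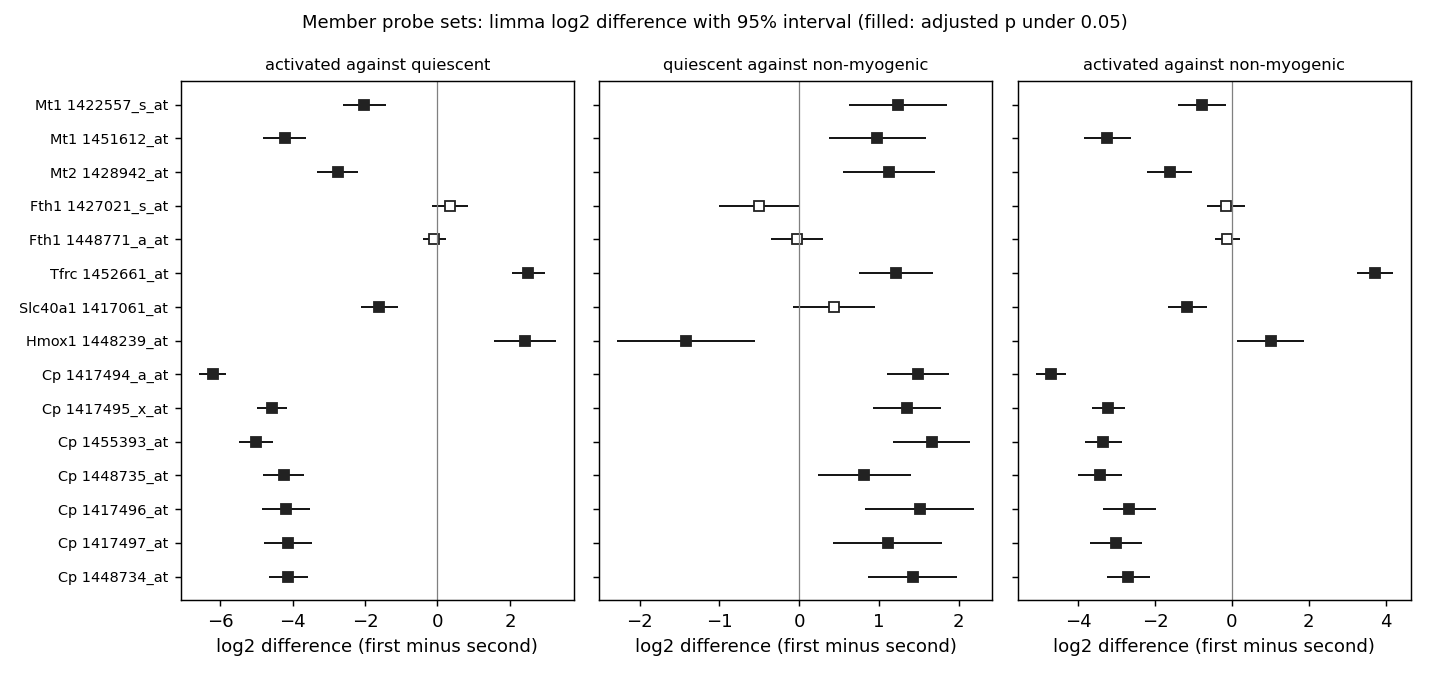
Log2 differences, first named group minus second, of the 15 tested probe sets in the 3 comparisons, with 95% intervals from limma (filled squares: adjusted p under 0.05). In activated against quiescent cells the Mt1, Mt2, Slc40a1 and all 7 Cp probe sets lie below 0, Tfrc and Hmox1 lie above 0, and both Fth1 intervals include 0.

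The metallothionein genes Mt1 and Mt2 encode the ubiquitous forms of the protein. In the RefSeq annotation they lie next to each other on chromosome 8, with 0 genes listed between them. The 250 bases before each start, and 30 bases after the start of Mt1, are shown because both genes hold matches to the metal response element. Matches to the letters TGCACNC or TGCGCNC on either strand are in capitals. The coordinates are those of build GRCm38.p6 and the strand is plus, while the array files name no build.

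Mt1 before the start, chr8:94178839-94179088: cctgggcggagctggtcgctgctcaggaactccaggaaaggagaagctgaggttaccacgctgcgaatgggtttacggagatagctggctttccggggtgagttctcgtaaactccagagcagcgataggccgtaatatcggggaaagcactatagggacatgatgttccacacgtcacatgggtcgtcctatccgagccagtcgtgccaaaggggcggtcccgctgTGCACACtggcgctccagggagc

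Mt1 after the start, chr8:94179089-94179118: tcTGCACTCcgcccgaaaagTGCGCTCggc

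Mt2 before the start, chr8:94172368-94172617: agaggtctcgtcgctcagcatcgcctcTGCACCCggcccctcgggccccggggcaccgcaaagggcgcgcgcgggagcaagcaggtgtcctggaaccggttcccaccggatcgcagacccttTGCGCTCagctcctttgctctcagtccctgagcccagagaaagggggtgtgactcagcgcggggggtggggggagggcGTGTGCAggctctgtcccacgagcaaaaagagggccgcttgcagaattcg

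Within the RefSeq window of 250 bases before and 50 after the start, Mt1 had 3 matches, 23 bases before and 3 and 21 bases after the start. Mt2 had 4, which lie 223, 128 and 50 bases before and 5 bases after its start. At least 1 match occurred in 25.7% of 32851 such windows, at least 2 in 7.11%, at least 3 in 1.97% and at least 4 in 0.517%. Mt1 also held 1 match to ACGTG, the core of the hypoxia response element, which 19.6% of windows hold. Mt2 held 1 match to the antioxidant response element TGACNNNGC, which 12.4% hold. Entries existed for 6 of the 9 genes, and the windows of Cp, Fth1 and Ftl1 held none of the 3 motifs. The first of the Tfrc windows held 2 metal response element matches and 1 of ACGTG, and the second held 0 and 1. A match is a string of letters and shows no binding, and whether the matches bear on the levels was not tested. The starts are those of the annotation. Where transcription begins in these cells was not tested, so matches after a start need not lie in a transcript.

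Mt1 was read by 2 probe sets. At 1422557_s_at the scaled signal was 1665, 1594, 1819 and 2102 on the activated arrays, against 8898, 5290, 6823 and 8706 on the quiescent arrays. The non-myogenic arrays gave 3974, 2046, 2151 and 5135. Every activated array lay below every quiescent array, and the highest non-myogenic array lay just below the lowest quiescent one. Activated cells averaged 1795 ± 225 and quiescent cells 7429 ± 1706 (SD, n = 4 each), so 24.2% of the quiescent signal was measured in activated cells. The log2 difference was -2.02 ± 0.28 (SE, limma adjusted p = 2.58e-05). Quiescent cells exceeded the 3327 ± 1496 of non-myogenic cells by 1.24 ± 0.29 on the log2 scale (limma adjusted p = 0.00271). On the small-sample arrays alone, which hold 1 non-myogenic array, that difference was 0.79 for Mt1 here (adjusted p = 0.179) and 0.87 for Mt2 (adjusted p = 0.113).

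The second Mt1 probe set, 1451612_at, had a signal of 24.7, 14.1, 16.1 and 18.0 on the activated arrays, against 671, 268, 768 and 901 on the quiescent arrays. Non-myogenic arrays had 318, 329, 259 and 348. Quiescent replicate 2, at 268, lay within the non-myogenic range, and the other quiescent arrays lay above it. The activated arrays were near the pseudocount, where the log2 difference understates the change, and it was -4.22 ± 0.28 (limma adjusted p = 2.27e-08) against quiescent cells. Quiescent cells were 0.98 ± 0.28 higher than non-myogenic cells (limma adjusted p = 0.0105), a call lost without quiescent replicate 4 (adjusted p = 0.0515). The difference was 0.41 on the small-sample arrays (adjusted p = 0.627) and 0.63 unscaled (adjusted p = 0.114). Both Mt1 probe sets fell in activated cells, while the size of the fall differed. The suffix _s or _x in a name marks probes that the manufacturer found to match more than 1 transcript or sequence. What other transcripts add to 1422557_s_at, to 1427021_s_at of Fth1 or to 1417495_x_at of Cp was not tested.

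Mt2, at 1428942_at, gave 1941, 1292, 878 and 791 on the activated arrays, against 8230, 8784, 6344 and 8154 on the quiescent arrays. The non-myogenic arrays lay between, at 4642, 1992, 2288 and 5013. No arrays of any pair of groups overlapped. Activated cells averaged 1226 ± 525 and quiescent cells 7878 ± 1061, a log2 difference of -2.75 ± 0.26 (limma adjusted p = 8.18e-07). Quiescent cells were 1.13 ± 0.27 higher than the 3484 ± 1563 of non-myogenic cells (limma adjusted p = 0.00343), and by 0.73 without scaling (adjusted p = 0.0599). The log2 difference between activated and non-myogenic cells was -1.62 ± 0.27 (limma adjusted p = 0.000107).

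Among the non-myogenic arrays Mt2 and Mt1 at 1422557_s_at split the same way. Replicates 1 and 4 had 3974 and 5135 for Mt1 and 4642 and 5013 for Mt2, while replicates 2 and 3 had 2046 and 2151 for Mt1 and 1992 and 2288 for Mt2. Replicate 4 shares its labelling kit with replicates 2 and 3. The second Mt1 probe set, 1451612_at, did not show this split, at 318, 329, 259 and 348 on the non-myogenic arrays. Over the 12 arrays the log2 values of Mt2 and of Mt1 at 1422557_s_at had a Pearson r of 0.909. With Mt1 at 1451612_at the r of Mt2 was 0.874. Both values describe 3 groups of arrays that also share kits. Against non-myogenic cells the drop of Mt1 at 1422557_s_at in activated cells was the smallest of the metallothionein results, at -0.78 ± 0.29 (limma adjusted p = 0.0265). It was -0.53 on the two-cycle arrays alone (adjusted p = 0.217) and -0.37 with median centring (adjusted p = 0.292), and it was not called when activated replicate 2 or 3 or non-myogenic replicate 1 or 4 was left out, with adjusted p values of 0.0532 to 0.152.

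**Figure D2:**
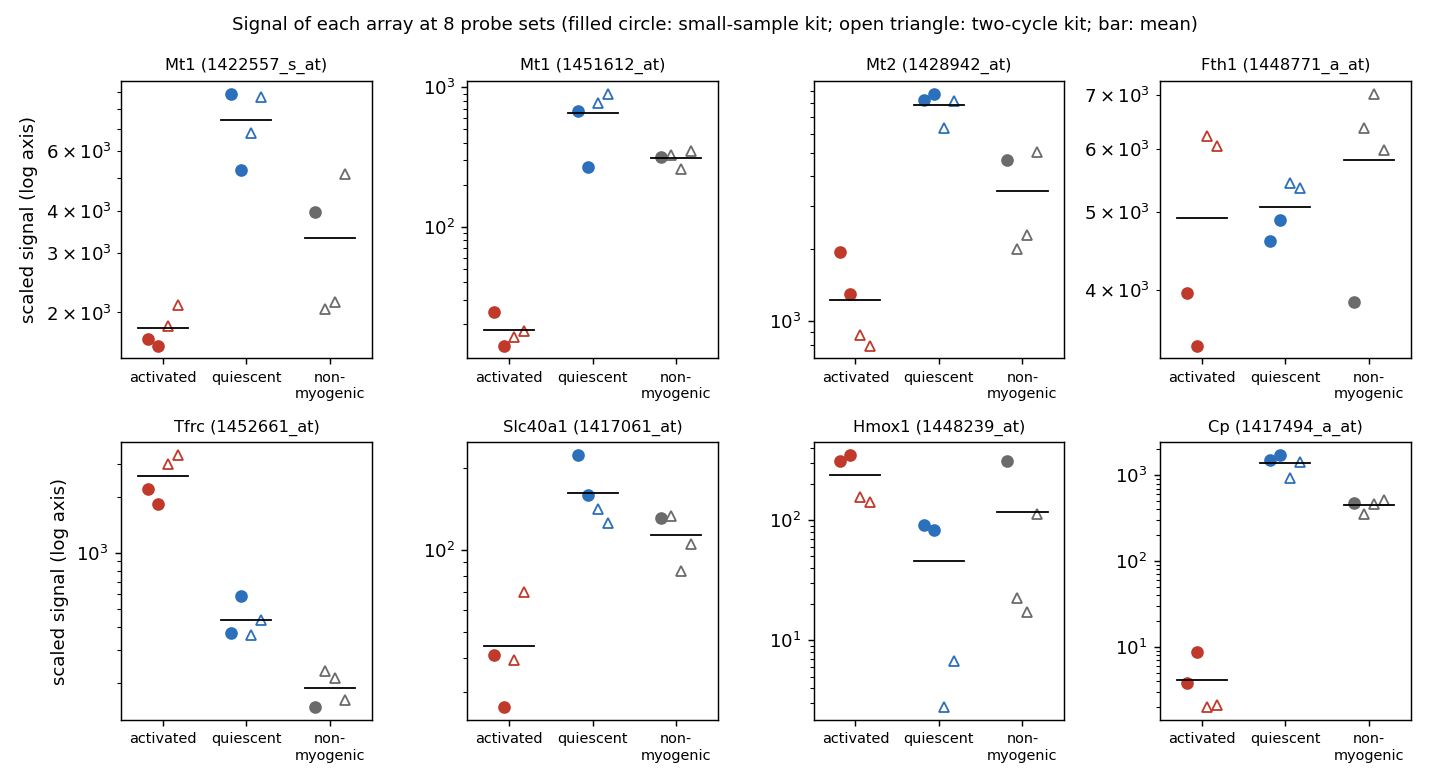
Scaled signal of each of the 12 arrays (log axis) at 8 probe sets of the 7 genes with a probe set of their own, with group means as bars and the labelling kits as filled circles and open triangles. Mt2 runs from 791 to 1941 in activated, 6344 to 8784 in quiescent and 1992 to 5013 in non-myogenic cells, and Tfrc runs the other way in activated cells, at 1823 to 3340.

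Iron uptake was read through Tfrc, which encodes the transferrin receptor. At 1452661_at the activated arrays had 2186, 1823, 3005 and 3340, against 373, 586, 361 and 434 on the quiescent arrays. The non-myogenic arrays had 149, 234, 212 and 162, so the 3 groups did not overlap and the order was activated, quiescent, non-myogenic. Activated cells averaged 2588 ± 704 and quiescent cells 439 ± 103, a log2 difference of 2.51 ± 0.21 (limma adjusted p = 2.18e-07). Quiescent cells were 1.21 ± 0.21 higher than the 189 ± 40.3 of non-myogenic cells (limma adjusted p = 0.000375). Activated cells were 3.72 ± 0.21 higher than non-myogenic cells (limma adjusted p = 3.29e-09).

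The other Tfrc probe sets were too dim for the filter. At 1422966_a_at the signal was 37.6 to 64.4 on activated, 10.7 to 25.0 on quiescent and 2.60 to 16.2 on non-myogenic arrays. At 1422967_a_at it was 15.2 to 44.2 on activated, 1.17 to 8.08 on quiescent and 0.898 to 17.2 on non-myogenic arrays. In the fit without a filter, activated cells were higher than quiescent cells at both, by 1.07 ± 0.21 and 1.19 ± 0.25 on the log2 scale (limma adjusted p = 0.000704 and 0.00127). Neither differed past the threshold between quiescent and non-myogenic cells. When the log2 values of all Tfrc probe sets were averaged, that difference was 0.42 (adjusted p = 0.0621), so the call rests on 1452661_at. The manufacturer's 3 control probe sets for the mouse transferrin receptor stayed at or below 40.9 on every array and were not tested.

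Iron export was read through Slc40a1, which encodes ferroportin, and Cp, which encodes ceruloplasmin. Slc40a1 at 1417061_at had 41.2, 26.4, 39.4 and 70.1 on the activated arrays, against 223, 159, 141 and 125 on the quiescent arrays. Non-myogenic arrays had 130, 133, 83.6 and 105 and overlapped the quiescent ones, while every activated array lay below both groups. The log2 difference between activated and quiescent cells was -1.60 ± 0.23 (limma adjusted p = 3.9e-05), and that between activated and non-myogenic cells was -1.16 ± 0.24 (limma adjusted p = 0.000633). Between quiescent and non-myogenic cells it was 0.44 with a 95% interval of -0.07 to 0.96 (limma adjusted p = 0.137). The dim probe set 1448566_at had 12.3 to 36.7 on activated, 34.5 to 81.2 on quiescent and 21.9 to 62.9 on non-myogenic arrays. Without a filter it was also lower in activated than in quiescent cells, at -0.84 ± 0.27 (limma adjusted p = 0.0189), although those arrays overlapped.

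Ceruloplasmin is best known as a plasma protein of the liver, and in other tissues it helps ferroportin to release iron. The brightest of its probe sets, 1417494_a_at, had 3.81, 8.67, 1.99 and 2.08 on the activated arrays, against 1519, 1723, 919 and 1447 on the quiescent arrays. Non-myogenic arrays had 481, 355, 459 and 522, and no groups overlapped. The activated signal averaged 4.14 ± 3.14, under the pseudocount of 14.7 and with no detection limit known, against a quiescent mean of 1402 ± 343. On the log2 scale with the pseudocount the difference was -6.21 ± 0.18 (limma adjusted p = 2.18e-11). Quiescent cells were 1.49 ± 0.18 higher than the 454 ± 71.0 of non-myogenic cells (limma adjusted p = 1.48e-05).

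All 7 Cp probe sets were lower in activated than in quiescent cells, with log2 differences of -6.21 to -4.12, and at all 7 the arrays did not overlap. No activated array exceeded 15.7 at any of them. All 7 were higher in quiescent than in non-myogenic cells, by 0.82 to 1.66, but arrays did not overlap at only 3 of the 7. The smallest of these, 1448735_at, had 565, 361, 366 and 252 on the quiescent arrays, against 411, 142, 130 and 148 on the non-myogenic arrays (limma adjusted p = 0.0216). Non-myogenic replicate 1, the single small-sample array of its group, lay above 3 of the 4 quiescent arrays there. The call of 1448735_at was lost without quiescent replicate 1 or 3 or non-myogenic replicate 2 or 3 (adjusted p = 0.0519 to 0.0776), unscaled (0.51, adjusted p = 0.252) and with median centring (0.86, adjusted p = 0.0678), and that of 1417497_at without quiescent replicate 3 (adjusted p = 0.0515). On the small-sample arrays alone the difference was 0.13, and 5 of the 7 were not called there, with adjusted p values of 0.102 to 0.815. On the two-cycle arrays alone all 7 were called, at 1.04 to 1.64. Since the probe sets read 1 gene, they are repeat readings of it and not 7 findings.

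Haem breakdown was read through Hmox1, the inducible haem oxygenase. At 1448239_at the activated arrays had 311, 348, 155 and 142, against 90.8, 82.9, 2.78 and 6.70 on the quiescent arrays. Non-myogenic arrays had 312, 22.4, 17.4 and 113 and spanned nearly the whole range. Within each satellite cell group the small-sample arrays, replicates 1 and 2, were the higher ones, and non-myogenic replicate 1 was the highest of its group. Activated cells averaged 239 ± 105 and quiescent cells 45.8 ± 47.5, a log2 difference of 2.42 ± 0.39 (limma adjusted p = 0.000102) with no overlap of arrays.

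The Hmox1 difference between activated and quiescent cells was 1.76 on the small-sample arrays and 3.08 on the two-cycle arrays. The small-sample minus two-cycle difference of -1.32 ± 0.28 passed the test of the interaction narrowly (limma adjusted p = 0.0474), as did 2.42% of all probe sets. The quiescent two-cycle arrays lie under the pseudocount, and the interaction was -0.30 with a pseudocount of 1/4 of the trimmed mean (adjusted p = 0.444), -0.67 unscaled (adjusted p = 0.344) and -1.02 with median centring (adjusted p = 0.0934). Without the filter its adjusted p was 0.0992. It was the only called interaction among the 15, and leaving out any of the 8 arrays but quiescent replicate 1 ended the call, with adjusted p values of 0.0733 to 0.185. In the other comparisons Hmox1 was less stable. Quiescent cells were lower than non-myogenic cells by a log2 difference of -1.41 ± 0.40 (limma adjusted p = 0.00977), which was -0.92 without the kit term (adjusted p = 0.336) and -1.13 without non-myogenic replicate 1 (adjusted p = 0.0616). Activated cells were higher than non-myogenic cells by 1.01 ± 0.40 (limma adjusted p = 0.0383). That value was 0.07 on the small-sample arrays alone (adjusted p = 0.841), and the call was lost when activated replicate 3 or 4 or non-myogenic replicate 2 or 3 was left out.

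**Figure D3:**
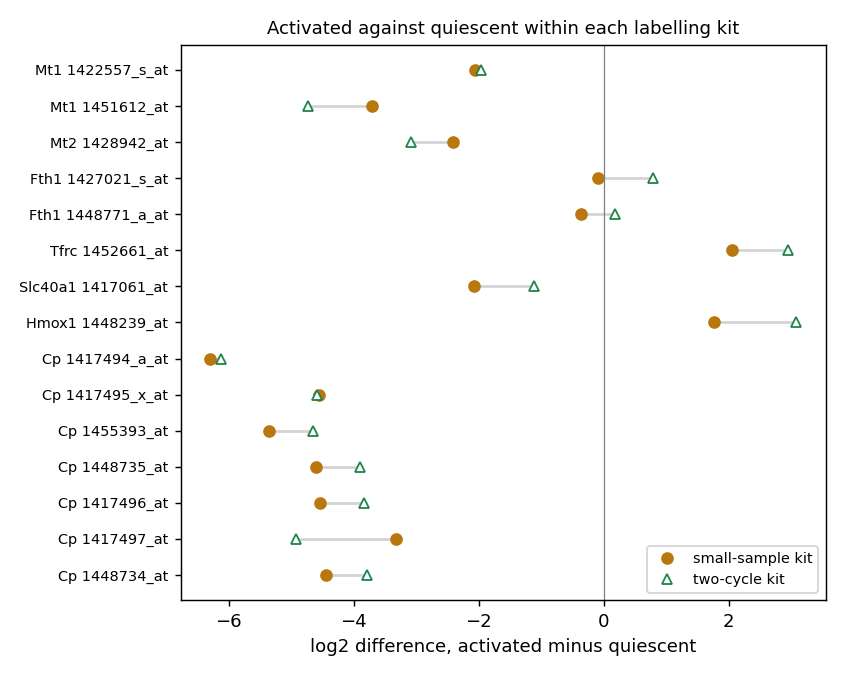
Log2 difference between activated and quiescent cells at the 15 tested probe sets, within the small-sample arrays (circles) and within the two-cycle arrays (triangles), 2 arrays per group in each. Mt1, Mt2, Slc40a1 and Cp lie below 0 and Tfrc and Hmox1 above 0 in both kits, Hmox1 lies at 1.76 and 3.08, and each Fth1 probe set lies on opposite sides of 0.

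Iron storage was read through Fth1, the ferritin heavy chain, which oxidises iron as it enters the ferritin shell. At 1448771_a_at the activated arrays had 3968, 3406, 6224 and 6041, against 4601, 4889, 5435 and 5357 on the quiescent arrays. Non-myogenic arrays had 3865, 6358, 7027 and 5980, and all 3 groups overlapped. In the activated and non-myogenic groups the small-sample arrays were the low ones. The log2 difference between activated and quiescent cells was -0.09 with a 95% interval of -0.41 to 0.23 (limma adjusted p = 0.599), and its sign turned with each other scaling.

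The other Fth1 probe set, 1427021_s_at, had 4035, 3928, 6673 and 6881 on the activated arrays, against 5056, 3578, 2855 and 5340 on the quiescent arrays. Non-myogenic arrays had 4192, 6863, 7522 and 7093. Its log2 difference between activated and quiescent cells was 0.35 with a 95% interval of -0.14 to 0.84 (limma adjusted p = 0.187), and it was 0.79 on the two-cycle arrays alone (adjusted p = 0.0244). It was also called unscaled, with median centring and without quiescent replicate 1, at 0.55 to 0.81. Between quiescent and non-myogenic cells it was -0.51 (limma adjusted p = 0.0847), and -0.87 on the two-cycle arrays alone (adjusted p = 0.0141). It was called lower unscaled, with quantile normalization and without quiescent replicate 1 as well, at -0.90 to -0.67. The intervals of both probe sets leave room for changes of less than 1 on the log2 scale between activated and quiescent cells.

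Other genes of iron and metal handling were counted in lists, at the probe set with the highest mean of each gene and with the same test. Between activated and quiescent cells 69.5% of 7961 genes were called, 31.6% higher and 37.9% lower, and their median log2 difference was -0.11. Counts given for other settings stand against other shares of all genes, 46.3% higher and 24.4% lower with median centring, 38.5% higher and 26.6% lower unscaled, and 23.2% higher and 26.6% lower on the small-sample arrays. Of 11 tested genes of iron uptake and release, 1 was higher and 7 lower, with a median of -1.52. Scara5, a receptor for ferritin, averaged 4.08 ± 1.96 in activated cells and 509 ± 53.1 in quiescent cells, a log2 difference of -4.80 ± 0.13 (limma adjusted p = 1.13e-11). Steap4, a metalloreductase, averaged 1.53 ± 0.805 in activated cells and 433 ± 227 in quiescent cells. Steap1, of the same family, was the 1 that was higher, at 991 ± 200 in activated cells and 79.4 ± 25.5 in quiescent cells (log2 difference 3.44 ± 0.20, limma adjusted p = 7.69e-09). With other scalings and within each kit 5 to 7 of the 11 were lower.

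Of 8 tested genes of iron storage and sensing, 0 were higher and 6 lower, with a median of -0.78. Bmp6, the signal through which the liver senses iron load, averaged 4.53 ± 3.25 in activated cells and 1837 ± 213 in quiescent cells (log2 difference -6.60 ± 0.17, limma adjusted p = 9.89e-12). Hfe, mutated in human haemochromatosis, averaged 33.1 ± 12.6 in activated cells and 222 ± 32.6 in quiescent cells. Aco1, which encodes an iron regulatory protein, had a log2 difference of -0.76 ± 0.16 (limma adjusted p = 0.000917) with overlapping arrays. With median centring 2 of the 8 were higher and 3 lower, and on the small-sample arrays 1 was higher and 2 lower, while unscaled 1 was higher and 3 lower.

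Of 8 tested genes of haem synthesis, 4 were higher and 1 lower, with a median of 0.46. Alad, the enzyme that makes porphobilinogen, averaged 372 ± 163 in activated cells and 83.7 ± 18.0 in quiescent cells (log2 difference 1.89 ± 0.15, limma adjusted p = 1.53e-07). Fech, which inserts iron into haem, averaged 929 ± 112 in activated cells and 553 ± 98.6 in quiescent cells. Ppox was the 1 that was lower, at 92.5 ± 25.0 in activated cells and 206 ± 4.96 in quiescent cells. Haem breakdown and transport genes gave 4 higher and 4 lower of 12. Blvra, which reduces the biliverdin that haem oxygenase makes, averaged 468 ± 139 in activated cells and 215 ± 16.5 in quiescent cells.

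Of 14 tested genes of iron-sulfur clusters and mitochondrial iron, 6 were higher and 2 lower, with a median of 0.06, against 2 higher and 2 lower on the small-sample arrays and 8 higher and 1 lower with median centring. Cisd1, an iron-sulfur protein of the outer mitochondrial membrane, averaged 1846 ± 196 in activated cells and 368 ± 39.8 in quiescent cells (log2 difference 2.28 ± 0.19, limma adjusted p = 1.7e-07). Slc25a28, a mitochondrial iron importer, was lower, at 214 ± 16.6 in activated cells and 492 ± 171 in quiescent cells. The zinc list gave 3 higher and 3 lower of 14, and 8 higher and 2 lower with median centring. In it Mtf1, the factor that drives metallothionein genes and is singled out here after its values were seen, had a log2 difference of -0.27 ± 0.51 (limma adjusted p = 0.652). Slc30a4, a zinc transporter, averaged 1336 ± 329 in activated cells and 533 ± 122 in quiescent cells. Mt3 and Mt4, the tissue-restricted metallothioneins, did not pass the signal filter. The copper list gave 3 higher and 4 lower of 9, but 4 higher and 1 lower unscaled and 5 higher and 1 lower with median centring. Among the lower ones was Atp7a, the pump that loads copper enzymes, at 118 ± 72.5 in activated cells and 584 ± 122 in quiescent cells.

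Genes that answer to signals known to act on these genes were counted as well. Of 11 tested glucocorticoid-responsive genes, 0 were higher and 9 lower in activated than in quiescent cells, with a median of -2.38, and 9 were lower with every other scaling and within each kit, with 1 higher on the two-cycle arrays alone. Per1, a clock gene, averaged 37.3 ± 12.9 in activated cells and 887 ± 101 in quiescent cells (log2 difference -4.14 ± 0.25, limma adjusted p = 1.12e-08). Klf9, a transcription factor, averaged 368 ± 161 in activated cells and 8810 ± 2289 in quiescent cells. Of 10 tested Nrf2-responsive genes, a class to which Hmox1 also belongs, 4 were higher and 2 lower. Gclm, a subunit of the enzyme that starts glutathione synthesis, averaged 931 ± 223 in activated cells and 176 ± 123 in quiescent cells (log2 difference 2.53 ± 0.35, limma adjusted p = 2.72e-05). Gstm1, a glutathione transferase, was lower, at 528 ± 119 in activated cells and 2582 ± 603 in quiescent cells.

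Of 14 hypoxia-responsive genes, 3 were higher and 6 lower, against 5 higher and 5 lower with median centring. Egln3, a prolyl hydroxylase, averaged 672 ± 155 in activated cells and 53.3 ± 6.78 in quiescent cells, while Ndrg1 averaged 105 ± 44.8 in activated cells and 2198 ± 108 in quiescent cells (limma adjusted p = 7.65e-10 and 2.95e-09). The lists were written with results of these data known, and no list was tested as a set.

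Between quiescent and non-myogenic cells 52.3% of genes were called, 25.9% higher and 26.3% lower, with a median log2 difference of 0.03. Iron uptake and release gave 2 higher and 4 lower of 11. Scara5 averaged 509 ± 53.1 in quiescent cells and 3629 ± 239 in non-myogenic cells (log2 difference -2.76 ± 0.13, limma adjusted p = 2.61e-09). Slc39a14, a carrier of zinc and of iron not bound to transferrin, averaged 2398 ± 1157 in quiescent cells and 426 ± 37.9 in non-myogenic cells. Iron storage and sensing gave 3 higher and 2 lower of 8, with Bmp6 at 1837 ± 213 in quiescent cells and 782 ± 132 in non-myogenic cells (log2 difference 1.22 ± 0.17, limma adjusted p = 6.52e-05). Haem synthesis gave 0 higher and 3 lower of 8, led by Alas2, the haem synthesis enzyme of red cell precursors, at 7.49 ± 7.68 in quiescent cells and 569 ± 286 in non-myogenic cells. Glucocorticoid-responsive genes gave 3 higher and 1 lower of 11. Zinc genes gave 0 higher and 4 lower of 14, led by the zinc carrier Slc39a13, at 172 ± 25.7 in quiescent cells and 327 ± 31.2 in non-myogenic cells. On the two-cycle arrays alone the zinc list gave 1 higher and 2 lower, and the glucocorticoid list gave 6 higher and 2 lower. Of all genes 26.1% were higher and 25.7% lower in that setting.

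Between activated and non-myogenic cells 71.9% of genes were called, 33.8% higher and 38.1% lower, with a median log2 difference of -0.08. Iron uptake and release gave 1 higher and 7 lower of 11, and glucocorticoid-responsive genes gave 0 higher and 8 lower of 11. Scara5 averaged 4.08 ± 1.96 in activated cells and 3629 ± 239 in non-myogenic cells, a log2 difference of -7.57 ± 0.13 (limma adjusted p = 7.9e-14). Txnrd1, a thioredoxin reductase of the Nrf2 list, averaged 1523 ± 197 in activated cells and 393 ± 115 in non-myogenic cells. That list gave 5 higher and 2 lower of 10.

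**Figure D4:**
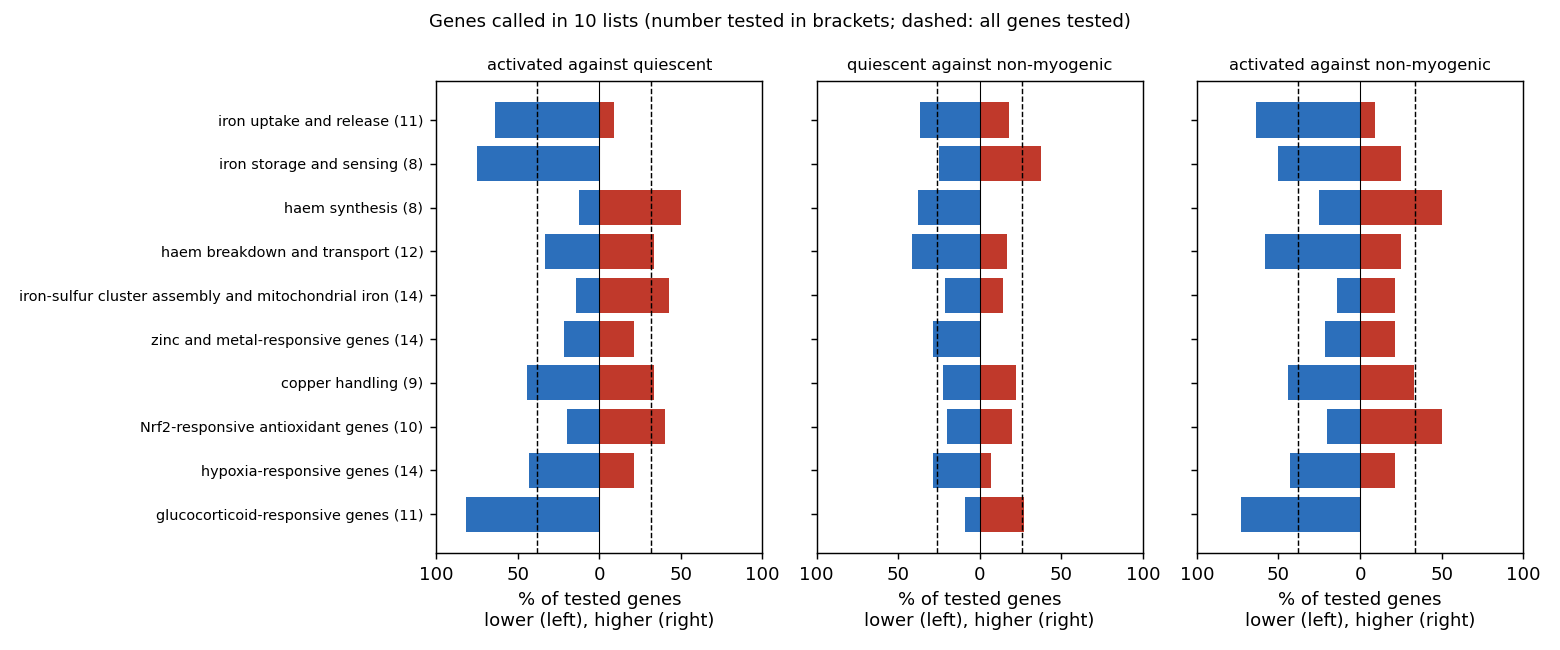
Share of the tested genes in 10 lists that were lower (left, blue) or higher (right, red) in each comparison, with the number tested in brackets and dashed lines at the shares over all 7961 genes. Between activated and quiescent cells 9 of 11 glucocorticoid-responsive genes and 7 of 11 genes of iron uptake and release are lower, against 37.9% of all genes.

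For each gene the tested probe sets of other genes with the most similar pattern were found by Pearson r of log2 values over the 12 arrays, which fall into 3 groups and share kits. Tfrc lay closest to Pdap1 (0.996), Cdca5 (0.994) and Actl6a (0.994), and Cp to Aox1 (0.994), Gpx3 (0.993) and Bmp4 (0.992). Mt2 lay closest to Ppp1r15a (0.991), Nr1d1 (0.984) and Ksr1 (0.981), and Mt1 to Pabpc1 (0.970), Gpsm1 (0.964) and Phf13 (0.960). The highest r was lower for the other genes. Hmox1 lay closest to Ctnnbip1 (0.957), Slc40a1 to Dusp16 (0.952) and Fth1 to Gde1 (0.919). The values describe likeness of pattern over these arrays.

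Markers of other cell types also differed between the groups. Summed over 9 fibroblast markers the signal was 1401 to 1876 on activated, 12340 to 22290 on quiescent and 41800 to 76650 on non-myogenic arrays. For 12 endothelial markers it was 233 to 252 on activated, 3613 to 6107 on quiescent and 16650 to 20380 on non-myogenic arrays, and for 8 pericyte and smooth muscle markers 2271 to 5278 on activated, 6132 to 9077 on quiescent and 10610 to 23120 on non-myogenic arrays. For 6 Schwann cell markers it was 197 to 371 on activated, 3301 to 4329 on quiescent and 5691 to 7567 on non-myogenic arrays. Between the sorted groups that sum is mostly Pmp22, at 2594 in quiescent and 5262 in non-myogenic cells, while Sox10 was 72.9 in quiescent and 47.4 in non-myogenic cells, and 2 of 5 tested were called lower in quiescent cells. The pericyte and smooth muscle sum of activated cells is mostly Acta2, at 2963 in activated and 4734 in quiescent cells. Abcc9, Kcnj8 and Myh11 averaged under the pseudocount in activated cells. Cspg4 ran the other way, at 82.4 in activated and 47.1 in quiescent cells. Of those 8 markers, 1 was called higher and 6 lower in activated than in quiescent cells. Fewer cells of a type and less RNA per cell cannot be told apart in these bulk samples. All 12 endothelial and all 9 fibroblast markers were lower in activated than in quiescent cells, as Mt1, Mt2, Cp and Slc40a1 were, and all of them were lower in quiescent than in non-myogenic cells, where Mt1, Mt2, Cp and Tfrc were higher. Among the listed iron genes, those that ran in the order of the fibroblast and endothelial sums included Scara5, Steap4, Hfe and Neo1. Scara5 averaged 3629 in non-myogenic, 509 in quiescent and 4.08 in activated cells, and Steap4 averaged 3236, 433 and 1.53. In the same order of groups Hfe averaged 470, 222 and 33.1, and Neo1, also of the storage and sensing list, 403, 206 and 110. Bmp6 was instead highest in quiescent cells, at 1837, and Steap1 in activated cells, at 991. The part of these cells in the fall of Mt1, Mt2, Cp, Slc40a1 and the listed genes was not tested.

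Macrophages recycle iron and hold much ferritin, ferroportin and haem oxygenase. Summed over 15 macrophage and leukocyte markers the signal was 318 to 347 on activated, 354 to 996 on quiescent and 466 to 871 on non-myogenic arrays. Itgam, C1qa and Aif1 averaged under the pseudocount in every group, 8 of the 15 did so in activated cells, and only 4 passed the filter. Laptm5 ran against the sums, at 103 in activated, 68.5 in quiescent and 44.25 in non-myogenic cells. Of the 4 tested, 0 were called higher and 2 lower in activated than in quiescent cells. For 5 erythroid markers the sum was 14.3 to 46.7 on activated, 27.5 to 65.0 on quiescent and 119 to 280 on non-myogenic arrays, and 0 of the 5 passed the filter. The non-myogenic sum is mostly Hbb-b2, at 80.8, and Slc4a1, at 67.8, while Hba-a1, Epb42 and Rhag averaged under the pseudocount in every group. The non-myogenic arrays, which had the highest erythroid sums, also had the highest Alas2, and the part of erythroid cells in that value was not tested. For 9 markers of mature muscle fibres the sum was 1185 to 12780 on activated, 2461 to 8811 on quiescent and 12180 to 38590 on non-myogenic arrays. Single markers ran both ways within that sum. Mylpf averaged 1816 in activated and 385 in quiescent cells, while Myh4 averaged 2.20 and 461, and Pvalb 14.7 and 304. Of the 9, 0 were called higher and 3 lower in activated than in quiescent cells.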

How the data were processed

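RNA of 12 samples was amplified with 1 of 2 biotin labelling kits and hybridised to Affymetrix Mouse 430A arrays, 1 per sample, per the labels' protocols. The deposited intensity values are linear probe set signals made with MAS5, per the submitters' processing notes, with version and settings not given in the sources used here. MAS5 subtracts mismatch from perfect match probes on each array alone. Detection calls were not used, so no background limit was set for single probe sets. Precision is limited by the number of arrays.

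Of 22690 probe sets in the deposited table, 691 name several genes, 1555 none and 64 are controls. Symbols of 20351 of the 20380 with 1 gene were matched by Entrez ID to RefSeq. Arrays were brought to the same 2% trimmed mean, 235, and log2(signal + 14.7) was taken, a pseudocount of 1/16 of that mean. Log2 differences are therefore on that scale and understate changes of dim probe sets. The 12072 probe sets with a mean of at least 47.0 entered a linear model in limma 3.58.1 (R 4.3.3) on all 12 arrays, with terms for group and kit and 8 residual degrees of freedom, probe sets of 1 gene kept apart. Within-kit values come from the same model on the arrays of 1 kit. The small-sample arrays hold 1 non-myogenic array, which is assumed to vary like the others. The code was tested on simulated data.

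The genes, lists and tests were chosen with earlier results of these data known. Named are all probe sets of the 9 genes, up to 4 called genes per list and comparison with the smallest adjusted p, list genes removed by the filter, and the 3 most similar patterns per gene. Mtf1, which was not called, was named outside this rule after its values were seen. Some cell type markers were named as well. Promoters came from the RefSeq table of build GRCm38.p6. Alternatives covered the kit term, each kit alone, pseudocount, filter, scaling, probe set choice, variance model, weights, arrays in the fit, a replicate block and each array left out. Leaving arrays out of the interaction was chosen after seeing the data. Figures were drawn with Python 3.11.15 and matplotlib.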

Additional observations from a re-analysis of the deposited data

Results flagged for a closer look

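Of 54 groups of 4 arrays at the genes' probe sets, 6 held an array that stood apart by Dixon's test at the 95% level, where chance gives about 1 in 20. Non-myogenic replicate 1, the single small-sample array of its group, stood apart at 3 of them, at 336 for Cp (1417495_x_at) and 411 for Cp (1448735_at), both above the other non-myogenic arrays, and at 4192 for Fth1 (1427021_s_at), below them. Quiescent replicate 2 stood apart at 989 for Cp (1455393_at), the highest quiescent value there, and at 8.08 for Tfrc (1422967_a_at), under the pseudocount. Activated replicate 1 was the lowest for Tfrc (1422966_a_at), at 37.6.

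The difference in Hmox1 between activated and quiescent cells was smaller on the small-sample than on the two-cycle arrays, with an interaction of -1.32 on the log2 scale (limma adjusted p = 0.0474). Its size and call depend on the processing, at -0.30 with a pseudocount of 1/4 of the trimmed mean (adjusted p = 0.444) and -0.67 unscaled (adjusted p = 0.344). Each kit holds 2 arrays per group.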

How the results depend on the processing

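No called result changed direction under any alternative. Of 403 single results under alternatives in activated against quiescent cells 399 kept their side of the threshold and 4, all of Fth1 at 1427021_s_at, gained a call. Between quiescent and non-myogenic cells 378 kept it, 21 lost and 4 gained a call, between activated and non-myogenic cells 387 kept and 16 lost it, and for the interaction of kit and group 210 kept, 11 lost and 3 gained it. The 16 lost calls were those of Mt1 at 1422557_s_at and of Hmox1, which also lost its call without the kit term (adjusted p = 0.0938), with a pseudocount of 1/64 (0.0881), without the filter (0.0579) and with only the arrays of both groups (0.0607). The causes were not tested, except where fewer probe sets or arrays enter by construction.

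In activated against quiescent cells the genes' probe sets called higher numbered 4 without the filter, and those called lower 4 with the highest-mean probe set per gene or a gene's probe sets averaged. Between quiescent and non-myogenic cells 2072 of all probe sets were called on the small-sample arrays alone, where 3 of the genes' probe sets were higher. The higher ones numbered 4 with the highest-mean probe set and 3 with the mean, and the lower ones 0 without the kit term and 2 on the two-cycle arrays, unscaled or with quantile normalization. Between activated and non-myogenic cells 5281 of all probe sets were called on the small-sample arrays. There the higher ones numbered 1 without the kit term, on the small-sample arrays, with a pseudocount of 1/64, with only the arrays of both groups or with the replicate block, and the lower ones 4 with the highest-mean probe set or the mean. For the interaction 171 probe sets were called with a pseudocount of 1/64, 74 without the filter, 181 with median centring and 87 with quantile normalization, against 292.

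Leaving out each array gave 7762 to 8224 called probe sets in activated against quiescent cells, with 2 to 3 of the genes' probe sets higher and 11 lower. It gave 5567 to 6147 between quiescent and non-myogenic cells, with 9 to 11 higher and 0 to 2 lower, and 7872 to 8644 between activated and non-myogenic cells, with 1 to 2 higher and 10 to 11 lower. The interaction ranged from 35 to 681.

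The labels give same-numbered arrays no shared source, but the number partly follows the labelling kit. Deviations of same-numbered activated and quiescent arrays from group means correlated at 0.172 to 0.313 across probe sets, and at -0.506 to -0.136 once the kit, a term of the model, was taken out. In the comparisons with non-myogenic cells they correlated at -0.387 to 0.401. With the replicate block 7816 probe sets were called in activated against quiescent, 4948 in quiescent against non-myogenic and 7760 in activated against non-myogenic cells, and Hmox1 in the last was 0.81 (adjusted p = 0.0999). MAS5 signals near the pseudocount have no known detection limit here, which bounds what can be said of Cp and the second Mt1 probe set in activated cells.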

Other observations

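Ftl1, the ferritin light chain, and Trf, transferrin, are named by the annotation only together with other genes, so these values belong to no single gene. The probe set 1418364_a_at, listed for Ftl1 and Ftl1-ps2, had scaled signals of 2310, 2831, 6258 and 6237 on the activated arrays, against 1244, 853, 826 and 1284 on the quiescent arrays. Non-myogenic arrays had 1452, 1842, 2027 and 2487 there. Every activated array lay above every quiescent array. The probe set 1422302_s_at, which lists the same genes, had 3142 to 4328 on activated, 910 to 2398 on quiescent and 1914 to 2667 on non-myogenic arrays. The probe set 1425546_a_at, listed for Trf and Srprb, had 2.27, 2.44, 7.54 and 1.86 on the activated arrays, against 345, 218, 254 and 293 on the quiescent arrays. Non-myogenic arrays had 213, 168, 169 and 221. These probe sets were not tested.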
